A study of Sus scrofa with 32 samples.

Results

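Blood monocytes were studied as 615 cells, 201 from the peripheral blood mononuclear cell (PBMC) library of pig 1 and 414 from that of pig 2. They were taken from 13243 blood cells, and from 48629 cells in all 8 libraries, that passed minimums of unique molecular identifiers (UMIs, each a captured transcript molecule) and genes and a maximum share of UMIs from 13 mitochondrial genes. Among those cells, monocytes were chosen by at least 2 UMIs summed over CD14, CD163 and CSF1R and by no UMI of CD3E, CD79B or CD2. The measured values of these 6 genes therefore chose the cells, and every comparison of the monocytes with other blood cells, or of monocytes split by CD163 or CD14, is given as a description without a test. Monocytes made up 3.12% of blood cells in pig 1 (exact Clopper-Pearson 95% interval 2.71 to 3.57%) and 6.09% in pig 2 (5.53 to 6.68%), where the intervals cover counting error only.

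The series holds droplet-based 3′ single-cell RNA sequencing (10X Chromium, v2 chemistry) of PBMC and ileum from 2 mixed-breed pigs of 7 weeks of age, labelled female (pig 1) and male (pig 2), with no treatment named. Each pig gave 1 PBMC library, isolated from blood in cell preparation tubes, and 3 ileal libraries: from dissected Peyer's patch regions (PP), from ileum without such regions (non-PP) and from a complete cross section (whole ileum). Ileal cells were released with reducing and chelating agents and enzymes at body temperature and passed over a dead cell column, steps not described for blood cells, so that tissue and preparation cannot be told apart. Each library is 1 sample of 1 pig, so that there were 2 samples per tissue once the 3 ileal libraries of a pig were summed. The PBMC libraries held 36465389 UMIs in pig 1 and 38240907 in pig 2, of which the monocytes contributed 1288554 and 2229962.

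The whole ileum library labelled pig 1 went against its sex label. It held 197.5 CPM (UMIs of a gene in 1000000 UMIs of the sum) from 3 Y-linked genes, whereas the other 3 libraries of pig 1 held 0 to 0.224 CPM and those of pig 2 held 108 to 215 CPM. The counts of genes that differed from ileum are therefore given with and without it, and calls lost without it are named. Both PBMC libraries matched their labels, and of 66 cell barcodes that they shared among cells passing the filter, 0 belonged to a monocyte in both.

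Monocytes are circulating phagocytes of the myeloid lineage that leave the bone marrow, patrol the blood and enter tissues, where they can become macrophages or dendritic cells. They sense bacteria through CD14 and Toll-like receptors, take up opsonised particles through Fc receptors, and carry calcium-binding S100 proteins and lysozyme as ready antimicrobial stores. In pigs, monocytes range from cells rich in CD14 with little CD163, a haemoglobin scavenger receptor, to cells with less CD14 and more CD163, the latter regarded as further matured.

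The genes that chose the cells were detected to different degrees. On the Sscrofa11.1 assembly, CD14, the lipopolysaccharide co-receptor, lies on chromosome 2 from 142348036 to 142349686, and CSF1R, the receptor for the growth factor of mononuclear phagocytes, lies on the same chromosome from 151102138 to 151130311. CD163 lies on chromosome 5 from 63300200 to 63334497. CSF1R was detected in 88.1% of monocytes of pig 1 and 73.2% of pig 2, CD14 in 64.7% and 84.8%, and CD163 in 26.9% and 28.3%. In 2200 and 2129 blood T cells, taken by at least 2 CD3E UMIs and no CD79B UMI, each of the 3 was detected in 0.273% to 3.10% of cells, at median depths of 3562 and 3515 UMIs against 6694 and 4845 UMIs in monocytes. For all other genes, T cells were further held to no UMI of the 3 marker genes, which left 2154 and 2022 cells with medians of 3540 and 3452 UMIs. CD14 with CSF1R and without CD163 was the most frequent combination, in 43.3% and 43.0% of monocytes. CD14 without the other two was found in 8.46% and 21.5%, CSF1R alone in 21.4% and 7.25%, and all 3 genes in 9.45% and 15.9%.

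CD2 set much of the number of cells. CD2 encodes an adhesion receptor of T and NK cells and lies on chromosome 4 from 103963802 to 103976971. Of 355 cells of pig 1 and 1073 of pig 2 with at least 2 marker UMIs, 98 (27.6%) and 489 (45.6%) were left out for CD2 UMIs only. In contrast, CD3E alone left out 18 cells in each pig and CD79B alone 15 and 28. In droplets without cells, CD2 and CD3E were at similar levels, 257 and 325 CPM for CD2 against 371 and 365.5 CPM for CD3E.

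**Figure D1:**
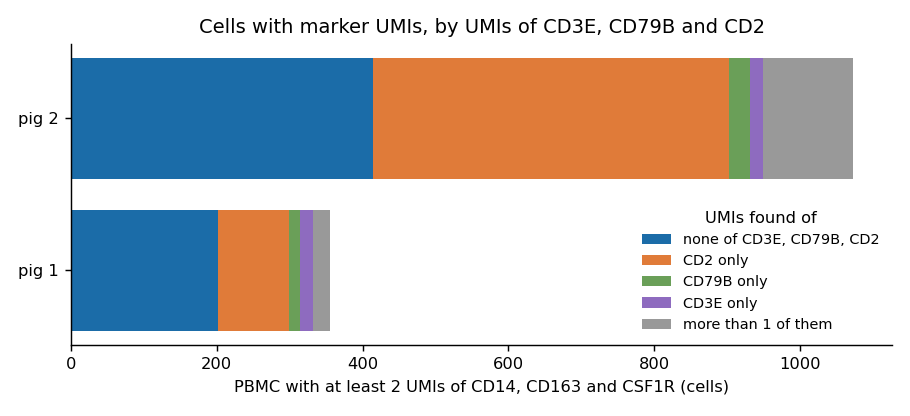
Blood cells with at least 2 UMIs of CD14, CD163 and CSF1R by the UMIs that excluded them, as stacked bars of cell numbers for pig 1 and pig 2. Cells without CD3E, CD79B and CD2 (201 and 414) are the monocytes, and cells left out for CD2 alone (98 and 489) form the second largest segment in pig 1 and the largest in pig 2.

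The cells left out for CD2 alone also carried myeloid genes, at levels that were not tested against those of monocytes. Their LYZ (lysozyme) stood at 7262 and 3333 CPM in pigs 1 and 2, their FCN1 (ficolin 1, a lectin of the complement system) at 1577 and 3159 CPM, and their TYROBP (signalling adaptor of myeloid receptors) at 2928 and 2771 CPM. Of 2198 genes with at least 50 CPM, 0 (0.0%) were above monocytes by more than 1 on the log2 scale in both pigs and 6 (0.273%) were below. The 6 were S100A8, S100A9, S100A12, the haemoglobin gene HBB and 2 genes without a symbol. For HBB, 5 cells held 89.4% and 89.9% of the UMIs in monocytes, so that its ratio rests on few cells. S100A12 was at 365 and 1181 CPM in CD2-only cells against 966 and 3032 CPM in monocytes. The complement genes C1QA and C1QB, below 50 CPM in both classes, were at 25.7 and 14.9 CPM and 22.8 and 43.1 CPM in CD2-only cells, against at most 7.76 CPM in monocytes. Of the CD2-only cells, 49.0% and 71.4% held at least 2 CD2 UMIs, at median depths of 7095 and 8658 UMIs. With CD2 UMIs allowed, the share of blood cells in the gate was 4.64% in pig 1 (299 cells) and 13.3% in pig 2 (903 cells).

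Genes that the rule did not use matched the monocyte label. LYZ, on chromosome 5 from 33612593 to 33618953, was detected in 99.5% and 99.0% of monocytes against 6.22% and 9.54% of T cells. FCN1, on chromosome 1 from 274125666 to 274132917, was detected in 99.5% and 100% of monocytes against 1.44% and 9.001% of T cells. TYROBP was detected in 100% and 99.8% against 15.0% and 13.9%. FCGR3A, which encodes the Fc receptor CD16, was found in all monocytes but also in 80.5% and 66.5% of T cells. Droplets without cells held 1368 and 1858 CPM of FCGR3A, above the 1131 and 1095 CPM of T cells, so that its detection there does not separate T cells from background. CCR2, the chemokine receptor for exit from bone marrow, was detected in 49.8% and 56.3% of monocytes, and the macrophage marker CD68 in 22.9% and 19.8%.

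In all, 70 of 2067 genes (3.39%) stood above the other PBMC by more than 2 on the log2 scale in both pigs, and 115 of 2042 (5.63%) stood below them, a contrast that the rule itself used. The 20 named genes with the highest ratios included S100A9 and S100A8, the subunits of calprotectin, which sequesters metals from microbes. S100A9 was at 323 and 1268 CPM in monocytes and 16.3 and 140 CPM in the other PBMC, and S100A8 at 251 and 912 CPM against 11.9 and 112 CPM. LYZ stood at 10820 and 5894 CPM against 606 and 907 CPM, and FCN1 at 2192 and 4448 CPM against 120 and 778 CPM. For scale, a T cell sum held 39.2 and 33.65 CPM of LYZ. Other named genes were SLPI (a secreted protease inhibitor), C5AR1 (the receptor for the complement fragment C5a), VCAN (the proteoglycan versican), PLBD1, HNMT (which degrades histamine) and CASP1 (the inflammasome protease). FOLR1, a folate receptor gene, was at 2466 and 3075 CPM in monocytes and 8.92 and 25.1 CPM in T cells. Complement factor D, CFD, was at 907 and 992 CPM against 99.7 and 149 CPM in the other PBMC. The other PBMC contain the CD2-only cells. With CD2 allowed in the gate, 177 genes passed the same fold.

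**Figure D2:**
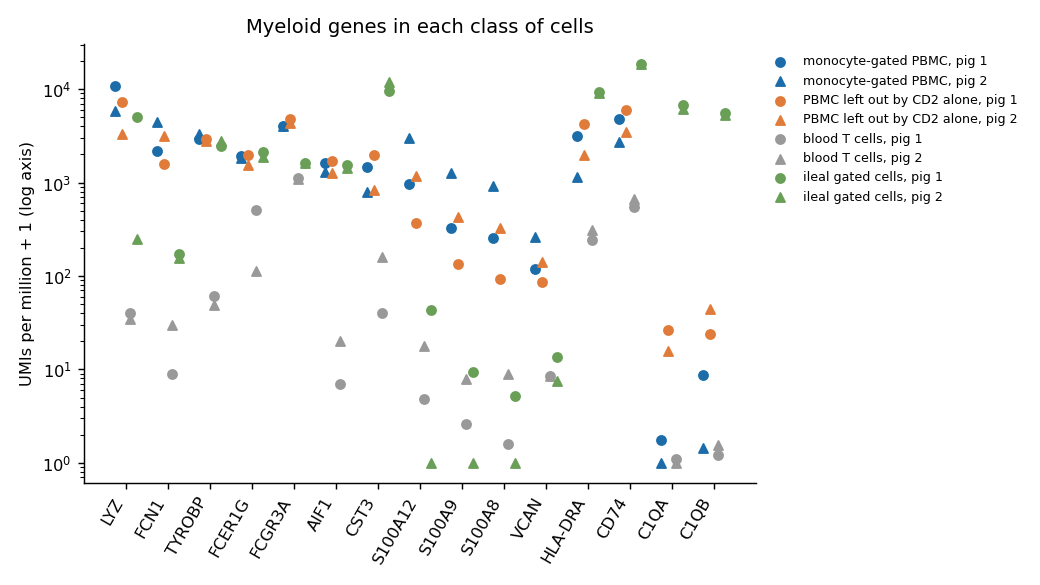
Level of 15 myeloid genes in CPM plus 1 (log axis) in monocytes, CD2-only cells, T cells of blood and ileal cells passing the same gate, with a point for each pig. LYZ, FCN1 and the S100 genes lie far above T cells in both pigs' monocytes, and CD2-only cells lie near the monocytes except for lower S100 genes and higher C1QA and C1QB.

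Markers of T, B and NK cells were lower in monocytes than in the other PBMC, whereas the summed markers of neutrophils, mast cells and plasmacytoid dendritic cells (DCs) were higher. The 10 T cell markers summed to 35.7 and 52.9 CPM, against 2112 and 1987 CPM in the other PBMC, with CD3G the most abundant and CD3E and CD2 at 0 by the rule. The 7 measured B cell markers summed to 9.31 and 8.97 CPM against 760.3 and 595 CPM, with PAX5 at 0. NK and cytotoxic markers summed to 963 and 720 CPM against 23530 and 16460 CPM, and GNLY (granulysin) led them at 414 and 299 CPM. Of 8 measured neutrophil markers, summing to 283 and 412 CPM against 22.9 and 62.4 CPM in the other PBMC, MMP8, MMP9 and ELANE were at 0 and CSF3R, the receptor for granulocyte colony-stimulating factor, was the most abundant. CSF3R and PGLYRP1, a peptidoglycan-binding protein, were the 2 neutrophil markers of at least 50 CPM, and both were past the fold over the other PBMC. Plasmacytoid DC markers summed to 835 and 1264 CPM against 388 and 666 CPM. The interferon regulator IRF7 made up 371 and 925 CPM of these sums, and SPIB, the factor among them that was past the fold, was lower at 6.21 and 1.79 CPM against 88.7 and 82.7 CPM. The sums of conventional DC markers were 29.5 and 22.9 CPM against 87.6 and 111.8 CPM. Of 4 measured mast cell markers, summing to 213 and 134 CPM against 21.4 and 52.3 CPM, HDC and GATA2 were at 0, while MS4A2, a subunit of the IgE receptor, was at 189 and 128 CPM and KIT, the stem cell factor receptor, at 24.1 and 6.28 CPM, with none past the fold.

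Cells just inside and just outside the threshold were alike in these genes. The 55 and 109 monocytes with exactly 2 marker UMIs held LYZ at 12600 and 6748 CPM and FCN1 at 2656 and 4755 CPM. The 43 and 102 cells with 1 marker UMI and none of the excluded genes held LYZ at 13920 and 5756 CPM and FCN1 at 2245 and 3797 CPM. S100A12 was at 1391 and 3820 CPM inside and 1292 and 3030 CPM outside.

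CD163 was detected in 54 monocytes of pig 1 (26.9%, 95% interval 20.9 to 33.6%) and 117 of pig 2 (28.3%, 24.0 to 32.9%). The split followed depth: CD163-positive cells had medians of 7554 and 7722 UMIs and CD163-negative cells 6355 and 3855 UMIs. With every cell thinned to the minimum UMI number of the filter, CD163 was detected in 4.98% and 6.52% of monocytes. The share of CD163-positive cells was 39.4% and 52.4% among monocytes without a CD14 UMI, 24.1% and 33.9% with 1 CD14 UMI, 17.5% and 18.9% with 2, and 33.3% and 16.4% with 3, so that it was highest in cells without CD14. It did not fall steadily in either pig, and in pig 2 it was 21.9% of 32 cells with 4 CD14 UMIs. The rule contributes to this, since a cell without CD14 needed its 2 UMIs from CD163 and CSF1R.

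No gene differed between CD163-positive and CD163-negative monocytes by more than 1 on the log2 scale in both pigs (0.0% of 2158 genes in either direction). With classes set from thinned cells, 3 genes were past it on the high side and 6 on the low side, and with a gate of 3 UMIs, 1 and 3. The named genes with the highest ratios in both pigs were led by MS4A2, at 262 and 171 CPM in CD163-positive cells and 155 and 99.4 CPM in negative cells, and by DUT, a nucleotide pool enzyme, at 305 and 184 CPM against 163.2 and 123 CPM. Droplets without cells held 544 and 323 CPM of DUT, above both classes. LGALS1, the lectin galectin 1, was at 4296 and 3224 CPM against 2882 and 2166 CPM. On the lower side, HCST (the adaptor DAP10) was at 69.9 and 55.6 CPM against 140 and 131 CPM, and IL2RG, the common cytokine receptor chain, at 147 and 167 CPM against 290.5 and 293 CPM. HCST was also above both classes in droplets without cells, at 197.5 and 186.1 CPM. TREM1, an amplifier of inflammatory signalling, was at 42.5 and 187 CPM against 105 and 306 CPM. All these ratios had 1 direction in both pigs, but they shrank with depth in pig 2: among cells of at least 5000 UMIs, the log2 ratio of LGALS1 was 0.44 in pig 1 and -0.01 in pig 2, and that of TREM1 -0.90 and 0.29. LYZ and HLA-DRA, a class II antigen presentation gene, did not keep 1 direction, since HLA-DRA was at 2408 and 1163 CPM in positive cells and 3442 and 1119 CPM in negative cells.

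The CD14 split put cells above a CD14 level of 2.642 per 10000 UMIs, the median over all monocytes, in the CD14-high class, with 71 of 615 cells within 20% of it. CD14-high cells were 71 in pig 1 (35.3%) and 237 in pig 2 (57.25%), and they were shallower, at medians of 4923 and 3183 UMIs against 7236 and 7806 UMIs in CD14-low cells. Only 11 and 39 cells were both CD14-high and CD163-positive, 60 and 198 were CD14-high and CD163-negative, and 43 and 78 were CD14-low and CD163-positive. Pig 2 thus had the larger share of CD14-high cells.

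Between CD14 classes, 9 of 2225 genes (0.404%) were past a log2 ratio of 1 on the high side in both pigs and 2 (0.0899%) on the low side. TREM1 was at 180 and 432 CPM in CD14-high cells against 50.04 and 146 CPM in CD14-low cells, and CCL11, a chemokine gene, at 527 and 391 CPM against 225 and 153 CPM. CSTA, an inhibitor of cysteine proteases, was at 65.85 and 57.8 CPM against 11.7 and 15.6 CPM, POGLUT1 at 88.8 and 118 CPM against 42.6 and 50.45 CPM, and RASA1 at 63.0 and 54.4 CPM against 23.4 and 26.7 CPM, while 4 more had no symbol. The low side held MT-2B, a metallothionein, at 91.6 and 29.5 CPM against 194 and 75.7 CPM, and 1 gene without a symbol. Several myeloid genes had ratios of 1 direction without passing 1 in both pigs. CSF3R was at 132 and 366 CPM against 68.1 and 101 CPM, FCGR3A at 5915 and 5500 CPM against 3362 and 3021 CPM, and FOLR1 at 3533 and 4483 CPM against 2069 and 2154 CPM. MS4A2, LGALS1 and S100A4 were lower in CD14-high cells, S100A4 at 1406 and 606.5 CPM against 2178 and 1513 CPM. FCN1 differed little, at 2336 and 4868 CPM against 2139 and 4173 CPM. Among cells of at least 5000 UMIs, 1 gene passed on the high side and 0 on the low side, and the log2 ratio of TREM1 was 1.22 in pig 1 and 0.49 in pig 2 and that of CCL11 1.39 and 1.07. CCL11 was uneven in pig 1, at 1357 CPM in the 11 CD14-high CD163-positive cells, and within CD163-negative cells its ratio was 0.45 and 1.03. After thinning to the filter's minimum UMI number, classes were set by whether CD14 was detected, not by the median level. With these classes, 5 genes passed on the high side, 4 of them among the 9. On the low side 2 passed, 0 of them among the 2. The ratio of TREM1 was then 1.82 and 1.24 and that of CCL11 -0.12 and 0.88.

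**Figure D3:**
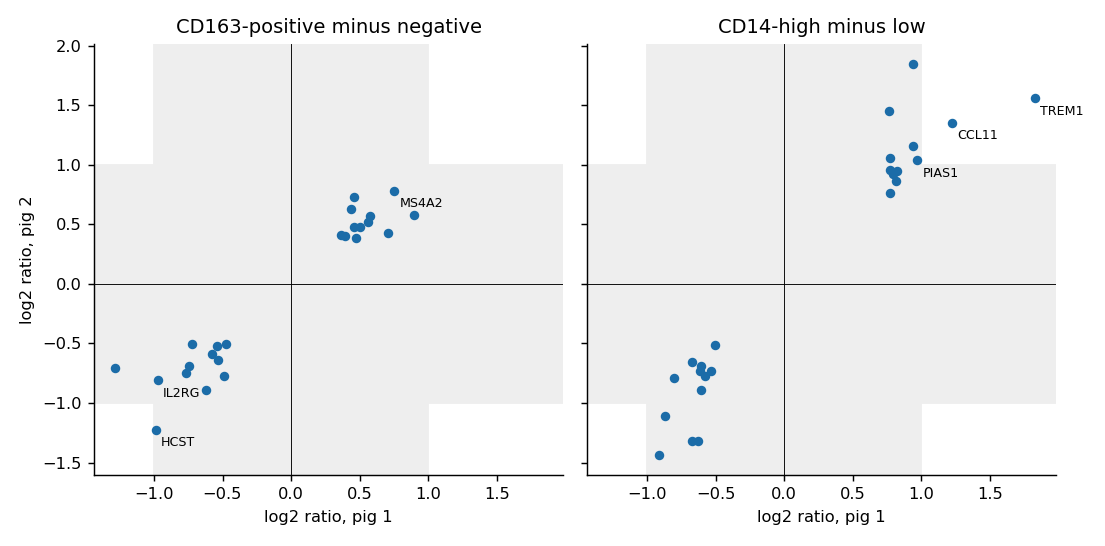
Log2 ratios of the genes named for each split, all with at least 100 CPM in the higher class, in pig 1 (x axis) and pig 2 (y axis) for CD163-positive against CD163-negative monocytes and for CD14-high against CD14-low monocytes, a point for each gene. The grey bands mark ratios within 1 of 0 in at least 1 pig, and of the genes plotted TREM1 and CCL11 lie beyond them, both in the CD14 panel.

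To ask how blood monocytes differ from ileal cells that pass the same gate, UMIs were summed per pig and tissue. The gate held 66 ileal cells, 41 in pig 1 (12 non-PP, 19 PP and 10 whole ileum) and 25 in pig 2 (6, 12 and 7), with 235939 and 153403 UMIs, so that 1 ileal UMI is worth more CPM than 1 blood UMI. In such sums, fewer cells of a type and less RNA per cell cannot be told apart. The ileal cells are called ileal gated cells here, since their leading genes were not those of blood monocytes. edgeR's quasi-likelihood test compared 2 against 2 sums, with the spread estimated over 8 sums that included those of T cells. Genes were called where the adjusted p (Benjamini-Hochberg) was below 0.05 with a log2 fold change beyond 1. Of 10224 genes, 520 (5.09%) were called higher in blood and 559 (5.47%) lower, 10.6% in either direction. The median log2 fold change over all genes tested was 0.18, the level against which the values below are to be read. With the T cell sums left out of the fit, 267 were higher and 475 lower of 5618 genes tested. With median-ratio size factors in place of trimmed-mean ones, the split was 340 higher and 623 lower. Without the whole ileum library labelled pig 1, 449 were higher and 475 lower. Of the called genes named or listed here, CD80, DNAJB1, GZMA, GZMB, IFIT2, ISG15, MS4A2, MSR1, MX1 and TNF then lost their call (adjusted p from 0.0509 to 0.147), and TNFAIP6 was not tested. The ileal sums limited the test: leaving out that of pig 1 left 55 higher and 110 lower, and leaving out that of pig 2 left 60 and 210.

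The named genes, which leave out markers of other cell types and genes under 50 CPM, included 5 S100 genes among the 12 with the largest change on the higher side. S100A8 was at 251 and 912 CPM in blood, against 4.24 CPM in ileal gated cells of pig 1 and 0 in pig 2, where it was at least 46.6-fold higher against a floor of 3 UMIs per sum (adjusted p = 0.0216). S100A9 was at 323 and 1268 CPM against 8.48 and 0 (at least 64.8-fold in pig 2, adjusted p = 0.00602), and S100A12, a ligand of the receptor RAGE, at 966 and 3032 CPM against 42.4 and 0 (at least 155-fold in pig 2, adjusted p = 0.00545). S100A12 UMIs in ileal gated cells came from 1 library, the PP library of pig 1, with 75.7 CPM. Both blood values lay above both ileal values for each of these genes.

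Further named genes that were higher in blood were FCN1, at 2192 and 4448 CPM against 169.5 and 156.5 CPM (log2 fold change 4.60 ± 0.61 SE, adjusted p = 0.0027), and CD52, a glycoprotein of lymphocyte and monocyte surfaces, at 4620 and 4298 CPM against 242 and 117 CPM (4.85 ± 0.33, adjusted p = 0.000156). HK3, a myeloid hexokinase, was at 366 and 657 CPM against 25.4 and 13.0 CPM, and S100A6 at 3466 and 2994 CPM against 225 and 78.2 CPM. F13A1, the A subunit of coagulation factor XIII, was at 301 and 349 CPM against 8.48 and 0, SERPINB10 at 255 and 287 CPM against 12.7 and 0, and S100A4 at 1969 and 1155 CPM against 93.2 and 0. NFE2, a haematopoietic transcription factor, was at 59.8 and 175 CPM with 0 UMIs in ileal gated cells, at least 4.70-fold and 8.94-fold higher. PSTPIP1, a cytoskeletal adaptor, completed the 12, at 56.65 and 96.4 CPM against 0 and 6.52 CPM.

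The 12 genes named by the same rule on the lower side had few or no UMIs in blood monocytes. C1QA, on chromosome 6 from 80586259 to 80589213, encodes a chain of complement C1q made by tissue macrophages. It was at 0.776 CPM and 0 in blood against 6832 and 6167 CPM in ileum, at least 4584-fold lower in pig 2 (adjusted p = 3.0e-05). Its neighbour C1QB, from 80601680 to 80606076, was at 7.76 and 0.448 CPM against 5489 and 5326 CPM, and C1QC at 1.55 CPM and 0 against 3683 and 3175 CPM. C1QA was high in all 6 ileal libraries, from 2025 to 12260 CPM. DNASE1L3, a secreted nuclease of macrophages and DCs, had 0 UMIs in blood and 1466 and 1167 CPM in ileum, at least 629.9-fold and 867.4-fold lower in blood. TIMD4, a receptor for dying cells on resident macrophages, was at 0.776 and 0.448 CPM against 1848 and 378 CPM. The chemokine genes CXCL8 and CXCL14 and the protease gene ADAMDEC1 were also at or near 0 in blood, with CXCL14 at 10550 and 6043 CPM in ileum but uneven among its libraries, from 16.7 to 18290 CPM. TIMD4 was uneven as well, at 3080 CPM in the PP library of pig 1 and 50.15 CPM in its non-PP library, as were NUPR1 (13.2 to 1220 CPM), C3 (0 to 749 CPM) and DNASE1L3 (277 to 2969 CPM). CXCL8, ADAMDEC1, CD1E and SMOC1 were at 0 in at least 1 ileal library. CD1E, SMOC1, NUPR1 and C3, the central complement component, completed the list, C3 at 0.776 and 0.897 CPM against 437 and 215 CPM.

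**Figure D4:**
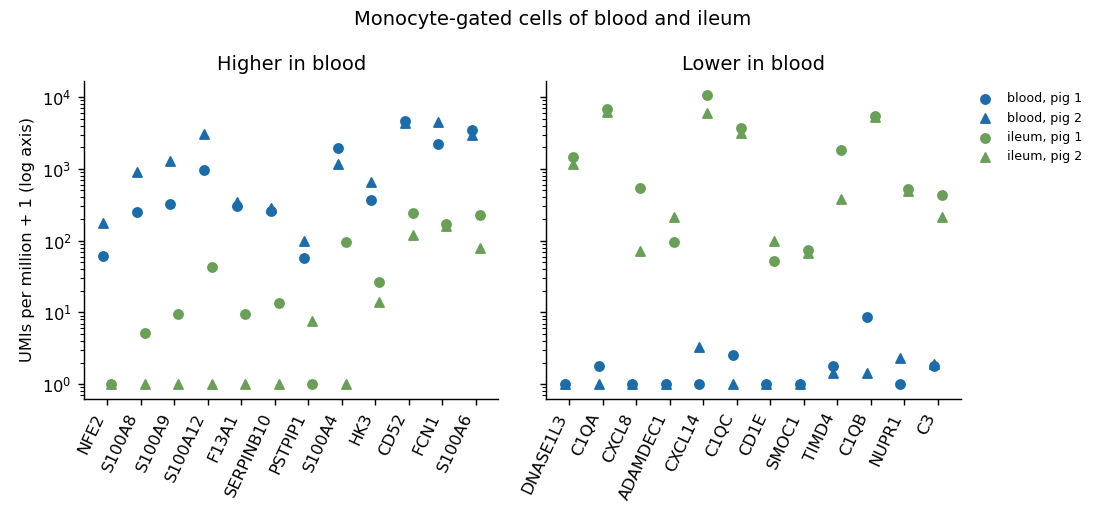
Level of the 24 named genes in CPM plus 1 (log axis) in blood monocytes and in ileal cells passing the same gate, with a point for each pig. For all 24 genes both blood points lie on 1 side of both ileal points, and points at 1 stand for 0 UMIs.

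Markers of other cell types differed between the 2 sides of this comparison. The 7 measured conventional DC markers summed to 615 and 1089 CPM in ileal gated cells against 29.5 and 22.9 CPM in blood monocytes. FCER1A was the most abundant of them in ileum, from 0 to 1635 CPM over its libraries. The 9 measured epithelial markers summed to 606 and 1441 CPM against 0 and 1.34 CPM, with EPCAM and KRT8 at 0 in blood and KRT8 at 1482 CPM in the PP library of pig 2. Droplets without cells in the PBMC libraries held 846 and 812 CPM of epithelial markers. Such droplets of the ileal libraries were not examined, so the ileal level is not separated from background. Plasma cell markers summed to 331 and 345.5 CPM against 77.6 and 73.5 CPM. Of 6 tested DC markers 4 were lower in blood, of 9 epithelial markers 4 and of 6 plasma cell markers 3, with 0 higher in each. Without the ileal sum of pig 1, these counts were 2, 4 and 1. T and B cell markers had no call by edgeR, with 1 and 2 lower at an unadjusted p below 0.05 and 1 T cell marker lower by DESeq2 and with pig as a block. Of the NK, mast cell and erythroid markers, GNLY, MS4A2 and HBB were higher in blood, and GZMA and GZMB lower, of which MS4A2, GZMA and GZMB lost their call without the whole ileum library labelled pig 1. With pig as a block, 4 of 4 tested erythroid markers were called higher, and 3 were by DESeq2. In droplets without cells, erythroid markers summed to 63880 and 13790 CPM against 8361 and 2503 CPM in monocytes. NK and cytotoxic markers summed there to 21330 and 17720 CPM against 963 and 720 CPM, so these levels are not separated from background. The 8 measured neutrophil markers, which belong to cells that also carry S100A8 and S100A9, summed to 283 and 412 CPM in blood against 114 and 45.6 CPM. Of 4 tested neutrophil markers none was called by edgeR or DESeq2, with 3 higher at an unadjusted p below 0.05 and 3 called higher with pig as a block. Their part in the values was not tested.

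Across 19 tested genes of monocyte identity, 6 were higher and 3 lower in blood, with a median log2 fold change of 0.53 against 0.18 over all genes. The 6 were S100A8, S100A9, S100A12, FCN1, VCAN and PLAC8, with VCAN at 117 and 263 CPM against 12.7 and 6.52 CPM (4.48 ± 0.62 SE, adjusted p = 0.00315) and PLAC8 at 2526 and 5392 CPM against 657 and 1023 CPM. The 3 were CST3 (cystatin C, an inhibitor of cathepsins), CD68 and GRN (the growth factor progranulin), CST3 at 1478 and 800.5 CPM against 9638 and 11860 CPM. The most abundant gene, LYZ, was not called, at 10820 and 5894 CPM against 4972 and 247.7 CPM (adjusted p = 0.244). Its ileal libraries were uneven, with 9762 CPM in the non-PP library of pig 1 and 111 CPM in that of pig 2. When the ileal sum of pig 1 was left out, 1 was higher and 1 lower, and when that of pig 2 was, 0 and 1.

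Of 17 tested inflammatory mediators, 11 were called lower in blood monocytes and 0 higher, with a median of -2.75. At an unadjusted p below 0.05, 12 were lower and 2 higher, the latter being the inflammasome sensor NLRP3, at 63.6 and 86.1 CPM against 42.4 and 19.6 CPM, and THBS1 (thrombospondin 1), at 47.3 and 118 CPM against 29.7 CPM and 0. IL18, a cytokine activated by inflammasomes, was at 7.76 and 6.28 CPM against 920 and 482 CPM (log2 fold change -6.44, adjusted p = 0.000213). The neutrophil attractant CXCL2 was at 3.10 and 10.3 CPM against 581 and 639 CPM, and CCL3L1, a chemokine gene, at 3.88 and 6.73 CPM against 3026 and 313 CPM. NFKBIA, an inhibitor induced by NF-κB, was the most abundant in blood, at 106 and 213 CPM against 1123 and 971 CPM. TNF was near the threshold, at 15.5 and 13.0 CPM against 161 and 13.0 CPM (adjusted p = 0.0491), and the value of pig 2 did not differ from its ileal value. IL1A, CXCL8 and IL6 had 0 UMIs in blood. Only 3 were called lower without the ileal sum of pig 1. The same ileal preparation at body temperature applies to these genes, and its part in the values was not tested.

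Immediate early and heat shock genes, which can rise during cell isolation, had 2 of 15 called lower in blood, FOSL2 and DNAJB1, with 0 higher and a median of -1.37. FOS stood at 313 and 213.5 CPM in blood and 631.5 and 587 CPM in ileum without a call. The summed level was 2929 and 4759 CPM in blood against 5349 and 9309 CPM in ileum. At an unadjusted p below 0.05, 8 genes were lower and 0 higher, with 5 called lower by DESeq2 and 5 with pig as a block. Leaving out the PBMC sum of pig 1 gave 6 lower, and leaving out the ileal sum of either pig 0.

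Among 18 tested interferon-stimulated genes, which restrict viruses, 10 were called higher in blood and 0 lower. The median was 2.41 (2.18 with the genes at 0 in a tissue set to their bound). CXCL10, an attractant of T cells, was at 2595 and 4101 CPM in monocytes against 382 and 358.5 CPM in ileal gated cells (3.44 ± 0.78 SE, adjusted p = 0.0235), and at 8.72 and 74.2 CPM in blood T cells. ISG15, a ubiquitin-like modifier, was at 1302 and 3324 CPM against 390 and 639 CPM, and IFIT1, a sensor of viral RNA, at 863 and 1659 CPM against 76.3 and 150 CPM. The most abundant gene of the list, IFI6, was not called, at 4968 and 9189 CPM against 4010 and 4439 CPM (adjusted p = 0.178). With pig as a block, 15 were higher, and without the whole ileum library labelled pig 1, 7. The count fell to 1 without the ileal sum of pig 1 and to 3 without that of pig 2.

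Genes of antigen presentation by class II molecules were lower in part, with 5 of 12 genes called lower, 0 higher and a median of -0.78. CD74, the invariant chain, was at 4775 and 2731 CPM against 18520 and 18620 CPM (-2.04 ± 0.26 SE, adjusted p = 0.00239), and HLA-DRA at 3121 and 1136 CPM against 9218 and 9029 CPM (-1.83 ± 0.40, adjusted p = 0.0199). CD74 lay between 16070 and 24330 CPM in each of the 6 ileal libraries. SLA-DQB1, the activation marker CD83 and the costimulatory gene CD80 were the others, CD83 at 29.5 and 7.62 CPM against 237 and 215 CPM. The call of CD80 held in 3 of 15 alternatives, and with pig as a block 4 genes of the list were lower. SLA-DMA, which helps load peptides, was not called, at 760 and 560.5 CPM against 674 and 756 CPM. Without the ileal sum of pig 1, 0 were lower, and without that of pig 2, 2. Markers of DCs, which carry class II genes, moved with this group as given above.

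Of the genes that sense microbes, none of 16 tested Toll-like receptors and adaptors was called by edgeR (1 higher with pig as a block and 4 with sums per library), with 5 higher and 0 lower at an unadjusted p below 0.05, 0 called by DESeq2 and a median of 0.79 (0.76 with genes at 0 set to their bound). LY96, the partner of TLR4, was the most abundant at 272 and 245 CPM against 148 and 176 CPM. TLR4, the lipopolysaccharide receptor, was at 81.5 and 107 CPM in blood and 33.9 and 58.7 CPM in ileum. Of 7 Fc and complement receptor genes, 2 were higher and 0 lower. FCGR3A was at 4054 and 4001 CPM against 1628 and 1636 CPM (1.57 ± 0.16 SE, adjusted p = 0.000835), and ITGB2, the β2 integrin chain, at 529 and 503 CPM against 352 and 241 CPM. The fold of ITGB2 lay at the threshold (log2 1.04), and its call held in 7 of 15 alternatives. FCER1G, the signalling chain of Fc receptors, was not called, at 1936 and 1819 CPM against 2145 and 1884 CPM. Of the 7, 1 was higher without the ileal sum of either pig.

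Among 16 tested migration receptors, 2 were higher (4 with pig as a block) and 2 lower, with a median of 0.50 (0.27 with genes at 0 set to their bound). CCR2 was at 126.5 and 181 CPM in blood against 12.7 CPM and 0 in ileum (adjusted p = 0.00684), at least 9.26-fold higher in pig 2, and ITGA4, the α4 integrin chain, was at 214 and 169 CPM against 119 and 91.3 CPM. The call of ITGA4 held in 9 of 15 alternatives. CCR7, the receptor that guides cells to lymph nodes, was at 0.776 and 3.14 CPM against 165 and 58.7 CPM, and CXCR4, the receptor for bone marrow retention, at 14.0 and 12.6 CPM against 84.8 and 71.7 CPM. No receptor was called without the ileal sum of pig 1, when 1 sample was left in that tissue, and the 2 lower were called without that of pig 2.

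Genes of clearance and digestion had more calls lower than higher, though most had no call. Of 13 complement components, 1 was higher (2 with pig as a block) and 5 lower, with a median of -2.55: CFD was at 907 and 992 CPM against 360 and 228 CPM, while C1QA, C1QB, C1QC, C1R and C3 were lower. Of 19 lysosome and lipid genes, 1 was higher and 7 lower, with a median of -1.155. The apolipoprotein gene APOE was at 68.3 and 52.5 CPM against 8545 and 5274 CPM (-6.60 ± 0.56 SE, adjusted p = 0.000361), and ranged from 194 to 15660 CPM over the ileal libraries. The lysosomal protease CTSD was at 135 and 145 CPM against 2229 and 1128 CPM. GLUL, glutamine synthetase, was the higher gene, at 456 and 394 CPM against 258.5 and 137 CPM. Of 10 scavenger and efferocytosis receptors, MSR1 and TIMD4 were lower and 0 higher, and 1 was lower without the ileal sum of either pig. Of 9 iron genes, SLC11A1, a metal pump of phagosomes, was higher at 99.3 and 137 CPM against 25.4 and 26.1 CPM, and FTL (ferritin light chain) and TFRC (transferrin receptor) were lower. Without the ileal sum of pig 1, 0 complement, 1 lysosomal and 0 iron genes were higher, and 4, 4 and 2 lower.

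Of 18 transcription factors, 3 were higher and 6 lower. CEBPB, a regulator of myeloid differentiation, was at 791 and 1170 CPM against 521 and 469 CPM, ZEB2 at 229 and 238 CPM against 76.3 and 26.1 CPM, and TFEC at 137 and 204 CPM against 63.6 and 32.6 CPM. The call of CEBPB held in 9 of 15 alternatives. BHLHE40 was at 3.88 and 2.24 CPM against 182 and 143 CPM, and MAF, BATF3, RUNX3, NR4A1 and NR4A2 were the other lower genes. SPI1 (PU.1), the master regulator of the myeloid lineage, was at 792 and 1008 CPM in blood and 720.5 and 717 CPM in ileum without a call. Without the ileal sum of pig 1, 0 were higher and 3 lower, and without that of pig 2, 0 and 4.

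**Figure D5:**
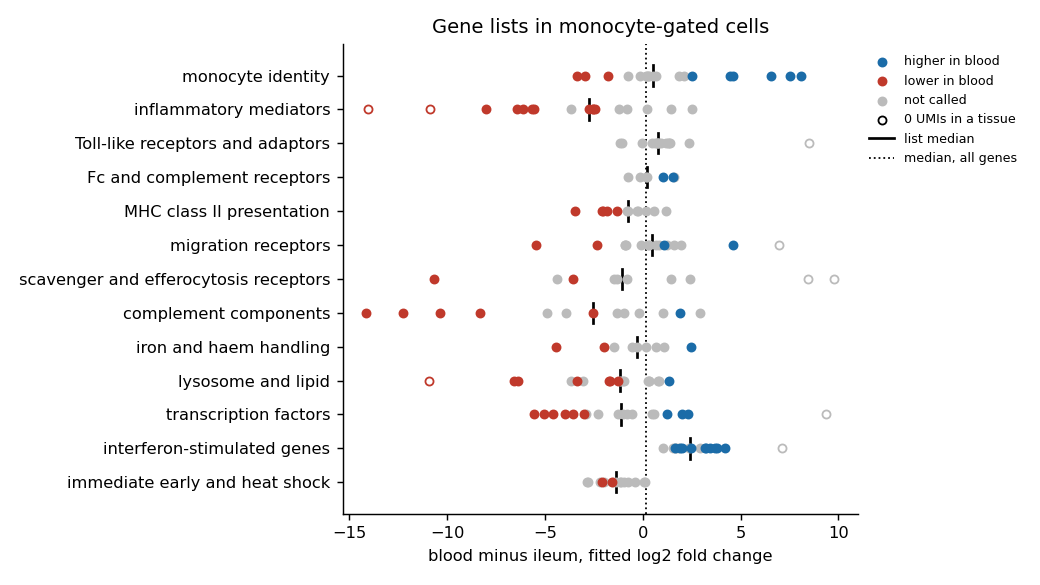
Fitted log2 fold change, blood monocytes against ileal gated cells, of each tested gene by list, with blue for called higher, red for called lower, grey for no call and a bar at each list's median. The dotted line marks the median of all genes (0.18), and hollow points are genes with 0 UMIs in a tissue, whose position depends on the fit and is no bound.

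To see which differences departed from those of another cell type of the same libraries, the blood-to-ileum difference of monocytes was compared with that of T cells (2154 and 2022 blood cells, 6455 and 4861 ileal cells) as an interaction term. The term is the difference in monocyte-gated cells minus the difference in T cells. By the thresholds used above, it was called above 0 for 161 genes (1.57%) and below 0 for 166 (1.62%), 3.2% in either direction. With pig as a block, 331 and 282 genes were called, and without the whole ileum library labelled pig 1, 89 and 102. Without the ileal sum of pig 1, 1 and 1 were called, and without that of pig 2, 4 and 7.

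CD52 was lower in ileal gated cells than in monocytes but not lower in ileal than in blood T cells, which held 3334 and 2923 CPM in ileum and 2690 and 2594 CPM in blood (interaction 5.05, adjusted p = 0.00138). VCAN and HK3 departed in the same direction, VCAN by 4.41 on the log2 scale. FCGR3A was at 1131 and 1095 CPM in blood T cells and 1372 and 1552 CPM in ileal T cells, blood values below the droplet background given above (interaction 1.925, adjusted p = 0.00487). Of the 18 interferon-stimulated genes, 3 were called above 0, IFIT1 and IFIT5 among them, IFIT1 by 3.64 (adjusted p = 0.0592 without the whole ileum library labelled pig 1), with 129 and 302 CPM in blood T cells and 152 and 242 CPM in ileal T cells. S100A8, S100A9 and S100A12 were not called. In T cells S100A12 was at 3.77 and 16.8 CPM in blood, below the 44.7 and 350.3 CPM of droplets without cells, and at 0.048 and 0.0686 CPM in ileum. S100A4 and S100A6 were not called either, with S100A4 at 1221 and 1343 CPM in blood T cells and 54.3 and 57.9 CPM in ileal T cells.

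Some genes moved less, or the other way, in monocytes. The immediate early gene FOS was at 4.16 and 7.20 CPM in blood T cells and 237 and 197 CPM in ileal T cells, so that its rise from blood to ileum was smaller in gated cells (interaction 4.27, adjusted p = 0.0027). KLF2, a factor of lymphocyte circulation, was at 416 and 484 CPM in blood T cells and 23.3 and 23.2 CPM in ileal T cells, against 156 and 106 CPM in monocytes and 72.05 and 163 CPM in ileal gated cells (interaction -3.82, adjusted p = 0.00487). Droplets without cells held 286.9 and 308.0 CPM of KLF2, above the monocyte values. ITGB2 was higher in blood in both cell types and more so in T cells, at 508 and 345 CPM against 55.9 and 52.0 CPM (interaction -1.98, adjusted p = 0.0275). CCR7 had opposite directions, at 77.5 and 162.5 CPM in blood T cells against 35.1 and 41.5 CPM in ileal T cells (interaction -7.15, adjusted p = 0.00649).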

How the data were processed

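The deposited matrices hold raw counts of UMIs for every gene in every barcode, with 1 matrix for the 4 sequencing runs of a library. The authors aligned reads with Cell Ranger to Sscrofa11.1 with Ensembl 97 annotation (version 4.0.6 in the submitters' processing notes), and deposited counts from before their removal of ambient RNA, low-quality cells and doublets. Cells with at least 1250 UMIs, at least 550 genes and at most 12.5% mitochondrial UMIs were kept, and the gate and splits were applied as described, with no doublet removal, Scrublet scores above 0.25 being left out as an alternative. The members, the 25 gene lists, the tests and the rule for named genes were chosen with earlier results of these data known.

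UMIs were summed per pig, tissue and class (monocyte-gated cells and T cells, 8 sums) and tested with edgeR 4.0.16 in R 4.3.3 (filterByExpr, TMM, glmQLFit and glmQLFTest, with Benjamini-Hochberg adjustment over all genes). Genes were called at an adjusted p below 0.05 and a log2 fold change beyond 1, and the 6 gate genes were left out. Ratios within blood used CPM plus 1 over genes with at least 50 CPM (100 CPM for named genes). Named genes were the 12 called genes with the largest fitted change in each direction of blood against ileum with both pigs in the same direction and at least 50 CPM in the higher tissue of both pigs, leaving out gate, mitochondrial, ribosomal protein, immunoglobulin and other-cell marker genes, the 20 with the highest ratios to the other PBMC, the 12 in each direction for each split, and all members of the lists.

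Symbols came from the matrices for 17733 genes, from a name table for 969 and from the study's gene list for 19, and 7159 had none. Genes of the lists without a row under their symbol, among them IL1B, FCGR2A, ITGAX and CD36, were not analysed here. Some members of the lists are counted but not reported here by name. Duplicated symbols (SERPINA1, GZMA, CCL4) are uncertain. Libraries of the same pig pair the tissues, and the correlation of pig differences between classes across genes was 0.0245 for monocyte-gated blood and ileum and 0.283 for monocytes and T cells of blood. Alternatives were pig as a block, other size factors, DESeq2 1.42.0, no filter on low counts, leaving out each sample or library, sums per library, deeper cells, thinning to 1250 UMIs, a gate of 3 UMIs and, added after seeing the data, CD2 allowed in the gate. With 1 sum per pig, tissue and class, p-values measure the spread between sums labelled as 2 animals, estimated over monocyte-gated and T cell sums together.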

Additional observations from a re-analysis of the deposited data

Results flagged for a closer look

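The difference between blood and ileum departed from that of T cells by an interaction test (edgeR quasi-likelihood, Benjamini-Hochberg adjusted) for 327 genes. The values below are the interaction on the log2 scale, the blood-to-ileum difference in monocyte-gated cells minus that in T cells, for the called named genes and list members reported here.

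Above the T cell difference were CD52 (5.05), HK3 (3.99), PSTPIP1 (4.48), VCAN (4.41), CFD (3.26), CEBPB (2.785), FCGR3A (1.925), LY96 (1.64) and LAMP1 (1.32). Interferon-stimulated genes were IFIT1 (3.64) and IFIT5 (3.33). KLF4 (5.89), LGALS3 (4.52), FOS (4.27), DUSP1 (2.545), CXCR4 (1.71) and JUN (1.42) were also above, and for these T cells had the larger rise from blood to ileum. From CPM plus 1, the blood-to-ileum log2 ratio of KLF4 was -1.69 and -1.50 in gated cells and -3.71 and -2.99 in T cells. These lie closer together than the fitted value. LGALS3 had opposite directions in the gated cells of the 2 pigs (1.47 and -0.93).

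Below the T cell difference were TIMD4 (-11.85) of the scavenger and efferocytosis receptors and the complement genes C1QB (-7.37) and C3 (-5.49). Lysosome and lipid genes were APOE (-4.546), CTSD (-3.45) and CTSH (-2.065). Iron genes were SLC40A1 (-5.62) and TFRC (-3.47), and FCGRT (-1.13) was of the Fc receptor list. Receptors, a chemokine and a costimulatory gene were CCL3L1 (-7.94), CX3CR1 (-7.75), CCR7 (-7.15), CD80 (-2.22), ITGB2 (-1.98) and CD44 (-1.54). Regulators were NUPR1 (-8.45), BHLHE40 (-4.74), RUNX3 (-4.16), KLF2 (-3.82) and MAF (-3.80). For CX3CR1, ITGB2 and KLF2, T cells had the larger change and were higher in blood than in ileum. The blood-to-ileum log2 ratio of CX3CR1 was 6.245 and 5.56 in T cells of pigs 1 and 2. In monocyte-gated cells it was 0.197 and -3.66.

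Without the whole ileum library labelled pig 1, C3, CD44, CD80, CX3CR1, CXCR4, FCGRT, IFIT1, LAMP1, LGALS3, LY96, MAF and PSTPIP1 kept their direction but lost their call (adjusted p from 0.0531 to 0.0701).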

How the results depend on the processing

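Of 99 called genes of the lists and named genes, 36 kept their direction and call without the ileal sum of pig 1 and 53 without that of pig 2, and at least 78 did so under every other alternative. The exceptions in direction were TNF (0.46 without ileum replicate 1, with a range of -3.34 to 0.46 over samples left out) and GNLY (-0.02852 with CD2 UMIs allowed, an alternative added after seeing the data). In all, 1291 of these values kept direction and call, 179 lost the call and 2 reversed. With pig as a replicate block, 98 of 99 kept theirs, and the pairing raised the interaction count from 327 to 613. Leaving out 1 sample gave 55 to 550 genes higher and 110 to 646 lower in blood, and 2 to 418 for the interaction. The lone sample of a tissue was then assumed to vary like the other groups.

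Genes higher and lower in blood were 812 and 923 without a filter on low counts, 341 and 946 with DESeq2, 340 and 623 with median-ratio size factors, 1336 and 594 with sums per library, 267 and 475 with only the 2 monocyte-gated classes, and 385 and 359 without both whole ileum libraries. The interaction counts were 1014 without a filter, 720 with DESeq2, 1035 with sums per library, 191 without the whole ileum library labelled pig 1 and 108 without both whole ileum libraries.

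The share of monocytes was 2.27% and 4.485% with a gate of 3 UMIs, 0.978% and 2.75% after thinning, 3.89% in pig 1 for cells of at least 2000 UMIs and 800 genes, and 4.64% and 13.3% with CD2 allowed. The CD163-positive share was 34.25% and 34.1% with the gate of 3 UMIs, 4.975% and 6.52% after thinning, and 41.3% in pig 2 with CD2 allowed. Genes past the fold in the CD163 split were 1 higher and 3 lower with the gate of 3 UMIs and 3 and 6 after thinning. In the CD14 split, 5 were higher after thinning, with classes then set by CD14 detection. Also higher were 14 within CD163-negative cells, 3 with CD2 allowed and 1 in cells of at least 5000 UMIs. On the low side, 5 passed with the gate of 3 UMIs and 0 with CD2 allowed or in cells of at least 5000 UMIs. Against the other PBMC, 42 passed with a prior of 10 CPM and 177 with CD2 allowed. The cause of these shifts was not tested.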

Other observations

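The monocytes of the 2 pigs differed in several genes, with 1 library on each side and therefore no test. Of 2460 genes, 73 were higher in pig 2 and 30 higher in pig 1 by more than 1 on the log2 scale, and among the same genes in blood T cells 92 and 38 were. SLPI, the secreted protease inhibitor, was at 180 CPM in pig 1 and 1413 CPM in pig 2 (log2 difference 2.96), with 20.5 and 216.6 CPM in droplets without cells. ISG15 differed by 1.35 and FCN1 by 1.02, both higher in pig 2. Blood T cells of pig 2 were also higher in SLPI (log2 difference 2.815) and FCN1 (1.766). Their levels were 0.694 and 10.9 CPM of SLPI and 7.83 and 29.0 CPM of FCN1 in pigs 1 and 2. Droplets without cells held more of both, with FCN1 at 117 and 645 CPM. The T cell differences are therefore not separated from background. The class II genes HLA-DRA and SLA-DQB1 were higher in pig 1, at 3121 against 1136 CPM and 1630 against 543 CPM, whereas HLA-DRA in T cells was 0.36 higher in pig 2.

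HBB, the β-globin gene of red blood cells, was found in 99.5% of monocytes of pig 1 and 72.0% of pig 2, at 8208 and 2448 CPM. Droplets without cells held it at 62760 and 13570 CPM, so that detection does not separate monocytes from background. Blood T cells held it at 10730 and 2323 CPM. In monocytes, 89.4% and 89.9% of its 10576 and 5460 UMIs came from the 5 cells richest in it.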
